A study of Mus musculus with 16 samples.

Results

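The genes examined are 10 genes for secreted T cell cytokines and death-receptor ligands, read as rows of a table of RNA-seq counts by their gene names: Ifng, Tnf, Il2, Il21, Il10, Csf2, Tgfb1, Lta, Fasl and Tnfsf8. All 10 were found among the 55450 genes of the table. The libraries were made from CD4+ and CD8+ tumor-infiltrating lymphocytes (TILs) of s.c. B16F10 tumors, a transplantable mouse melanoma line. There were 4 groups of 4 libraries: CD4+ TILs of WT mice, CD4+ TILs of Sirt2-/- mice, CD8+ TILs of WT mice and CD8+ TILs of Sirt2-/- mice. WT mice were C57BL/6J, and the knockout was the germline allele Sirt2tm1.1Fwa on a B6.129 background, so that the tumor-bearing host, and not only its T cells, lacked Sirt2, while the implanted tumor line did not. All groups carried the same tumor line and no other agent is named. The labels give no age for these mice, the methods give a single range of young adult ages for all mice of the study and call the controls age- and sex-matched, and it is not stated whether a library is 1 animal or a pool. The methods also describe a purification of TILs from s.c. tumors on beads against CD3ε, a chain of the T cell receptor complex. The account of the RNA-seq does not repeat this step, and how many other cells remained was not tested. The p-values therefore measure the spread between these libraries only.

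Cytokines are the short-range signals by which a T cell acts on its neighbours. IFN-γ (Ifng) and TNF (Tnf) make tumor cells and macrophages respond, Fas ligand (Fasl) kills cells that carry Fas, and lymphotoxin-α (Lta) is a close relative of TNF. IL-2 (Il2) and IL-21 (Il21) sustain T cells themselves, GM-CSF (Csf2) feeds myeloid cells, and IL-10 (Il10) and TGF-β1 (Tgfb1) restrain immune responses. Tnfsf8 encodes CD30 ligand. Most of these genes are transcribed in bursts after TCR engagement, when calcium drives NFAT into the nucleus, and many of their mRNAs are short-lived.

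The letters just upstream of 4 of the genes are shown because these 4 differed between WT CD8+ and CD4+ TILs, Ifng and Fasl being higher in CD8+ and Il21 and Tgfb1 higher in CD4+ TILs. Each run is the 250 bases before the start of the gene, read 5′ to 3′ on the gene's own strand (RefSeq, GRCm38.p6), and capitals mark the NFAT core GGAAA on either strand. The windows are chr10:118440796-118441045 (plus strand, Ifng), chr1:161788496-161788745 (minus strand, Fasl), chr3:37232637-37232886 (minus strand, Il21) and chr7:25686752-25687001 (plus strand, Tgfb1).
Ifng: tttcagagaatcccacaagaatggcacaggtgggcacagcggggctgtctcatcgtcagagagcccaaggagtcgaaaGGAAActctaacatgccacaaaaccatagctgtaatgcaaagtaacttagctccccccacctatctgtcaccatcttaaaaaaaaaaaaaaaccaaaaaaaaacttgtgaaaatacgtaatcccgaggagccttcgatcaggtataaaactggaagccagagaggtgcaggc
Fasl: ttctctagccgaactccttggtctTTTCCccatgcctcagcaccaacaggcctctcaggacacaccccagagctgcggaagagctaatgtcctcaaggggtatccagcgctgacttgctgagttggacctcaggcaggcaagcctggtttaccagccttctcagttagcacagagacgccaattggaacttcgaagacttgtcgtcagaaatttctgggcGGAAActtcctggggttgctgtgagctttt
Il21: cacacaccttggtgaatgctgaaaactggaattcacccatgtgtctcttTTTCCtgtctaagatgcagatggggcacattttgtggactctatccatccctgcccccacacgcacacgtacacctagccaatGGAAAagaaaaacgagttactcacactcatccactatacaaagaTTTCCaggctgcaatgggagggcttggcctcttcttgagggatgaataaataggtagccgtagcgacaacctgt
Tgfb1: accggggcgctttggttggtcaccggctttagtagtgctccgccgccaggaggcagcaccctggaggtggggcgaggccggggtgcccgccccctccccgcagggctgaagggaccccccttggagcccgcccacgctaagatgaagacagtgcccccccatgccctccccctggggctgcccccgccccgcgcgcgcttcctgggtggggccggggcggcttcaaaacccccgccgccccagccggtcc
The core was found once before Ifng, in 2 places before Fasl, in 3 before Il21 and in 0 before the GC-rich start of Tgfb1. Sequences matched for 9 of the 10 genes, all but Il10, and 8 of these 9 held the core, against 55.6% of 32851 promoter windows of the same length. The AP-1 letters TGANTCA were in 0 of the 9 windows and in 6.75% of all windows. A κB-like run (GGG, any 5 bases, then CC) was in 6 of 9 against 45.8%, the T-box half-site AGGTGTG in 1 of 9 (Il21) against 5.1%, the STAT letters TTCNNNGAA in 2 of 9 (Ifng and Lta) against 7.02%, and the CRE TGACGTCA in 0 of 9 against 1.55%. All were searched on both strands, matches of different motifs may overlap, and a match is only a description of the letters.

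In the genome, 2 pairs of these genes are neighbours. Tnf (chr17:35199381-35202007) and Lta (chr17:35203165-35205351) lie 1157 bases apart on the minus strand, and Il2 (chr3:37120523-37125959) and Il21 (chr3:37222759-37232636) lie 96.8 kb apart, also on the minus strand. Coordinates are those of GENCODE on GRCm38, and counts cover whole genes. Tgfb1 lies 3.062 Mb from Sirt2 on chromosome 7, so that 129-derived sequence around the knockout allele and the loss of Sirt2 cannot be told apart for it. Reads on overlapping genes bear on 3 of the genes. An unclassified gene on the same strand as Ifng, Gm49751, held 2298 counts over all libraries against 4660 for Ifng, the antisense gene Gm12534 held 176 against 507 for Il21, and Adad1, on the other strand, held 16 against 248 for Il2. The strand setting of the counting is not given in the sources used here, so the share between such pairs is uncertain.

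Total counts per library ranged from 28000949 to 62407851. In 3 libraries few genes held counts: 8169 in Sirt2-/- CD4+ replicate 4, which had the highest total of all, 12587 in WT CD4+ replicate 1, which had the lowest, and 14411 in WT CD8+ replicate 1, against 17730 to 22138 in the other 13. Many of the results are given with and without these 3 libraries. In CD8+ TILs the totals of the knockout libraries all exceeded those of the WT libraries. Sirt2 counts were 1681 to 2272 in WT CD4+, 1196 to 1703 in WT CD8+, 322 to 448 in Sirt2-/- CD8+ and 433 to 553 in Sirt2-/- CD4+ TILs, except in the Sirt2-/- CD4+ replicate 4, which had 0. The knockout groups lay below the WT groups in both cell types; which exons the allele lacks was not examined here. The CD4+ and CD8+ labels fitted their markers: Cd8a and Cd8b1 summed to 1462 to 2047 CPM (counts scaled to a common library size) in CD8+ and 14.04 to 74.9 in CD4+ libraries, and Cd4, Cd40lg and Zbtb7b to 436 to 720 CPM in CD4+ and 0.787 to 12.3 in CD8+ libraries.

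The calls lay between cell types and not between genotypes. Ifng and Fasl mRNA were 3.42-fold and 3.09-fold higher in CD8+ than in CD4+ TILs of WT mice, Tgfb1 mRNA was 1.71-fold higher in CD4+ TILs, and Il21 mRNA was found almost only there. Of the 10 genes, these 4 passed the test in WT TILs (edgeR's quasi-likelihood test, Benjamini–Hochberg adjusted p below 0.05 over all genes), where 11.9% of all genes tested passed it; in Sirt2-/- TILs only Fasl did, where 2.24% of all genes passed. Leaving out the libraries that held few genes gave 6 of 10 in WT TILs (background 28%) and 5 of 10 in Sirt2-/- TILs (background 25.4%). None of the 10 genes passed the test between genotypes in either cell type, and the CD4+ comparison did not call Sirt2 either. The library sizes behind CPM were adjusted by TMM, which sets the bulk of genes equal between libraries. In such bulk samples, more cells that express a gene and more mRNA per cell cannot be told apart.

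**Figure D1:**
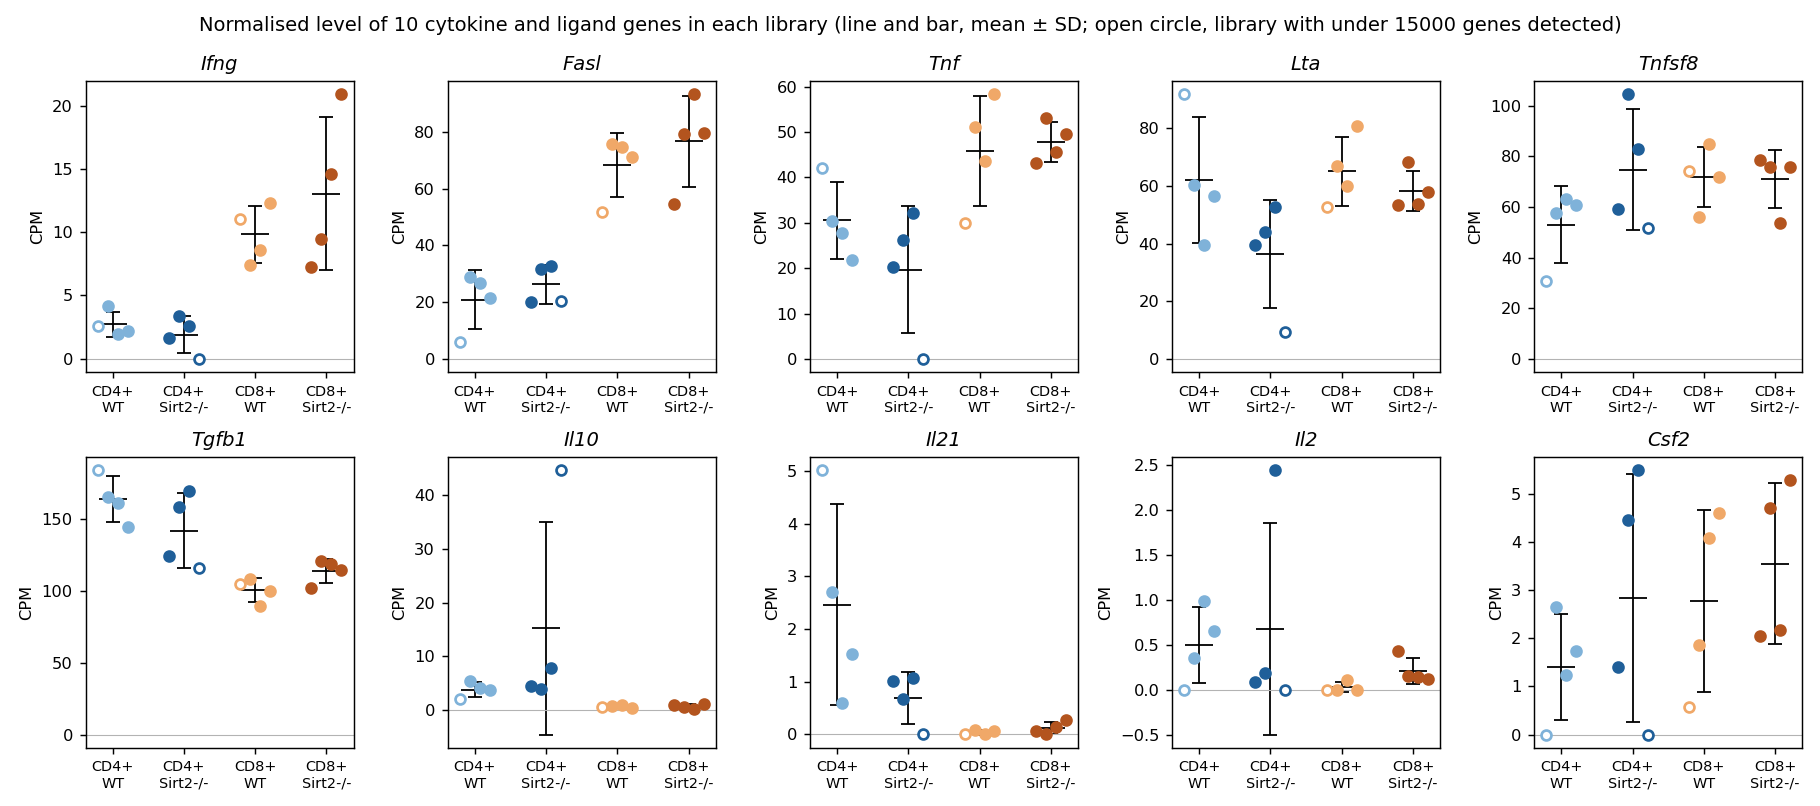
Level of each of the 10 genes in each of the 16 libraries, in CPM on linear axes, grouped by cell type and genotype; lines and bars give the mean ± SD of 4 libraries, and open circles are the 3 libraries with under 15000 genes detected. Ifng and Fasl lie higher in every CD8+ library than in every CD4+ library, Il10 lies lower, and the Sirt2-/- CD4+ library at 44.7 CPM of Il10 is an open circle.

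Ifng encodes IFN-γ, the cytokine by which T cells raise antigen presentation and GTPase genes in their targets. In WT CD8+ TILs its level was 11.02, 7.38, 8.56 and 12.3 CPM in replicates 1 to 4, and in WT CD4+ TILs 2.63, 4.14, 1.94 and 2.21 CPM. In Sirt2-/- CD8+ TILs it was 7.26, 9.46, 14.6 and 20.9 CPM, and in Sirt2-/- CD4+ TILs 1.63, 3.40, 2.62 and 0 CPM. Every CD8+ library lay above every CD4+ library in both genotypes, the Sirt2-/- CD8+ libraries spread the most, and the CD4+ value of 0 came from the library with few genes. In WT TILs the log2 fold change, CD8+ over CD4+, was 1.78 (SE 0.47, adjusted p = 0.0326), and in Sirt2-/- TILs it was 2.74 (SE 1.41, adjusted p = 0.555). The WT call was lost without CD4+ replicate 3 or 4 or CD8+ replicate 2, 3 or 4, at adjusted p of 0.0957, 0.0685, 0.0723, 0.0944 and 0.16, with the fold change between 1.65 and 2.06. Without the libraries with few genes it was 1.76 (SE 0.36, adjusted p = 0.00468) and 2.32 (SE 0.40, adjusted p = 0.00222).

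Fasl encodes the membrane ligand that triggers apoptosis through Fas. It was at 51.9, 75.9, 74.7 and 71.4 CPM in WT CD8+ TILs against 6.06, 28.8, 26.9 and 21.6 CPM in WT CD4+ TILs. In Sirt2-/- mice the CD8+ libraries were at 54.7, 79.2, 93.4 and 79.7 CPM and the CD4+ libraries at 20.2, 31.8, 32.7 and 20.6 CPM. The cell types did not overlap in either genotype. CD4+ TILs of both genotypes still held Fasl mRNA in every library. The log2 fold change was 1.63 (SE 0.40, adjusted p = 0.0214) in WT and 1.53 (SE 0.27, adjusted p = 0.0273) in Sirt2-/- TILs. Leaving out 1 library at a time kept it between 1.40 and 1.82 in WT and between 1.41 and 1.66 in Sirt2-/- TILs, but the call was lost in 3 and 6 of the 8 cases. These were WT CD4+ replicate 4 and CD8+ replicates 3 and 4 (adjusted p of 0.0576, 0.0591 and 0.0538) and Sirt2-/- CD4+ replicates 1, 2 and 3 and CD8+ replicates 2, 3 and 4 (adjusted p of 0.0723, 0.0757, 0.0628, 0.122, 0.126 and 0.116). Without the libraries with few genes the fold change was 1.51 (SE 0.14, adjusted p = 3.31e-05) in WT and 1.41 (SE 0.21, adjusted p = 0.0013) in Sirt2-/- TILs. Natural killer cells also express Ifng and Fasl. The 4 NK genes of the marker list (Ncr1, Klrb1c, Klra8 and Klre1) summed to 17.7 to 45.4 CPM in Sirt2-/- CD8+, 28.4 to 37.8 in WT CD8+, 0 to 8.09 in WT CD4+ and 0.0179 to 16.3 in Sirt2-/- CD4+ libraries, with 2 to 4 of them detected in each CD8+ library. Klre1 passed the test in WT TILs (log2 fold change 4.38, SE 0.88, adjusted p = 0.00813), the only 1 of the 4 to do so. Klre1 had 0 to 103 counts in WT CD4+ and 791 to 1041 in WT CD8+ libraries. It could pass the filter on low counts only through the CD8+ libraries, so its fold is poorly fixed. It made up most of the mean CD8+ sums, at 25.1 of 32.5 CPM in WT and 22.7 of 29.9 in Sirt2-/- libraries. The log2 fold change was above 0 for 3 of 4 NK genes in WT and 2 of 3 tested in Sirt2-/- TILs. Mean Ncr1 was lower in CD8+ than in CD4+ TILs, at 0.671 against 0.939 CPM in WT and 1.48 against 1.92 in Sirt2-/- mice. The part of natural killer cells in the Ifng and Fasl levels was not tested.

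Tnf encodes TNF, made by both CD4+ and CD8+ effector cells and by macrophages. Its levels were 30.02, 51.1, 43.6 and 58.3 CPM in WT CD8+ and 42.0, 30.5, 27.9 and 21.7 CPM in WT CD4+ TILs. They were 43.3, 53.2, 45.5 and 49.5 CPM in Sirt2-/- CD8+ and 20.2, 26.1, 32.2 and 0.0179 CPM in Sirt2-/- CD4+ TILs, the last being a single count. In WT TILs the cell types overlapped only through CD8+ replicate 1, a library with few genes, which lay below 2 of the CD4+ libraries; in Sirt2-/- TILs they did not overlap. With all libraries the log2 fold change was 0.52 (SE 0.25, adjusted p = 0.234) in WT and 1.26 (SE 1.22, adjusted p = 0.912) in Sirt2-/- TILs, so no difference was called. Without those libraries it was 0.93 (SE 0.17, adjusted p = 0.00241) and 0.84 (SE 0.16, adjusted p = 0.00307), both higher in CD8+ TILs.

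Lta, the neighbour of Tnf, was not called between the cell types. It was at 52.9 to 80.9 CPM in WT CD8+, 39.4 to 91.9 in WT CD4+, 53.5 to 68.3 in Sirt2-/- CD8+ and 9.37 to 52.8 CPM in Sirt2-/- CD4+ TILs. The Sirt2-/- cell types did not overlap, by a margin of less than 1 CPM, while the WT cell types did. The log2 fold change, CD8+ over CD4+, was 0.0096 (SE 0.23, adjusted p = 0.989) in WT and 0.66 (SE 0.46, adjusted p = 0.757) in Sirt2-/- TILs. Tnfsf8, whose product binds CD30 on activated lymphocytes, was at 56.2 to 84.9 CPM in WT CD8+, 30.7 to 63.0 in WT CD4+, 53.8 to 78.6 in Sirt2-/- CD8+ and 51.8 to 105 CPM in Sirt2-/- CD4+ TILs. Its log2 fold change was 0.36 in WT (2 SE either side, −0.12 to 0.84) and −0.09 in Sirt2-/- TILs (−0.59 to 0.42).

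Il21 encodes a cytokine of helper T cells. Its counts were 151, 124, 27 and 56 in WT CD4+ TILs and 46, 28, 47 and 0 in Sirt2-/- CD4+ TILs. In WT CD8+ TILs they were 0, 3, 0 and 2, and in Sirt2-/- CD8+ TILs 3, 0, 7 and 13. All 4 WT CD4+ libraries lay above all WT CD8+ libraries; in Sirt2-/- TILs the groups overlapped only through the CD4+ library with 0 counts. In CPM the means were 2.46 ± 1.91 (SD, n = 4) in WT CD4+, 0.685 ± 0.490 in Sirt2-/- CD4+, 0.0340 ± 0.0403 in WT CD8+ and 0.116 ± 0.113 in Sirt2-/- CD8+ TILs. The log2 fold change, CD8+ over CD4+, was −6.08 (SE 1.503, adjusted p = 0.0228) in WT TILs and −2.54 (SE 1.56, adjusted p = 0.675) in Sirt2-/- TILs. In WT TILs the gene could pass the filter on low counts only through the CD4+ libraries, and the CD8+ side of the fold rests on 5 counts, so its size is poorly fixed. The WT call was lost without CD4+ replicate 2 or CD8+ replicate 2, 3 or 4 (adjusted p of 0.0592, 0.0635, 0.0771 and 0.0785). It was, without the libraries with few genes, −5.06 (SE 1.13, adjusted p = 0.00702) in WT and −2.96 (SE 1.07, adjusted p = 0.0655) in Sirt2-/- TILs.

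Il2, the classical T cell growth factor, was close to the limit of detection. Its counts were 0, 16, 44 and 24 in WT CD4+, 4, 8, 108 and 0 in Sirt2-/- CD4+, 0, 0, 4 and 0 in WT CD8+ and 21, 6, 7 and 6 in Sirt2-/- CD8+ TILs. The 108 counts of a single Sirt2-/- CD4+ library stood far above the rest of its group. Il2 did not pass the filter in either comparison of cell types, nor between genotypes in CD8+ TILs, so these were not tested. A count of 0 allows up to 3 counts, which is 0.0793 to 0.0908 CPM in the WT CD8+ libraries. Intervals and floors of this kind cover counting error only, since the reads carried no molecular identifiers.

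Csf2 encodes GM-CSF. It was at 0.575, 1.85, 4.08 and 4.601 CPM in WT CD8+, 0, 2.64, 1.23 and 1.74 CPM in WT CD4+, 2.06, 4.69, 2.17 and 5.28 CPM in Sirt2-/- CD8+ and 1.39, 4.45, 5.49 and 0 CPM in Sirt2-/- CD4+ TILs. All 4 groups overlapped, and both values of 0 came from libraries with few genes. The log2 fold change, CD8+ over CD4+, was 0.90 (SE 1.25) in WT and 0.30 (SE 1.40) in Sirt2-/- TILs; the latter turned to −0.12 (SE 0.51) without the library with few genes.

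Il10 encodes an anti-inflammatory cytokine made by regulatory and other CD4+ T cells and by macrophages. It was at 1.997, 5.39, 4.10 and 3.73 CPM in WT CD4+ and 4.44, 3.88, 7.75 and 44.7 CPM in Sirt2-/- CD4+ TILs. In CD8+ TILs it was at 0.575, 0.714, 0.843 and 0.282 CPM in WT and 0.956, 0.617, 0.203 and 1.09 CPM in Sirt2-/- libraries. Every CD4+ library lay above every CD8+ library in both genotypes, and the value of 44.7 CPM (2498 counts) belonged to the Sirt2-/- CD4+ library with 8169 genes. The log2 fold change, CD8+ over CD4+, was −2.73 (SE 0.84, adjusted p = 0.0589) in WT and −4.40 (SE 1.19, adjusted p = 0.12) in Sirt2-/- TILs, neither of them called. Both were called without the libraries with few genes, at −2.84 (SE 0.51, adjusted p = 0.00215) and −2.93 (SE 0.55, adjusted p = 0.00286).

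Tgfb1 encodes TGF-β1, which is stored as a latent complex and must be released to act. It was at 184, 165, 161 and 144 CPM in WT CD4+ against 105, 108, 89.4 and 99.7 CPM in WT CD8+ TILs, with no overlap. In Sirt2-/- mice the CD4+ libraries were at 124, 158, 169 and 115 CPM and the CD8+ libraries at 102, 121, 118 and 114 CPM. The 3 Sirt2-/- CD4+ libraries with many genes lay above all CD8+ libraries of that genotype, and the fourth lay among them. The log2 fold change, CD8+ over CD4+, was −0.77 (SE 0.12, adjusted p = 0.00207) in WT TILs, a call that held without any 1 of the 8 libraries. In Sirt2-/- TILs it was −0.33 (SE 0.16, adjusted p = 0.499), and −0.44 (SE 0.12, adjusted p = 0.0187) without the library with few genes. Regulatory T cells are a source of both IL-10 and active TGF-β. The 6 genes of the Treg list (Foxp3, Ikzf2, Ikzf4, Il2ra, Lrrc32 and Ctla4) were detected in every library and summed to 1735 to 2893 CPM in WT CD4+, 1337 to 2688 in Sirt2-/- CD4+, 171 to 278 in WT CD8+ and 201 to 370 CPM in Sirt2-/- CD8+ libraries. The part of Treg cells in the Il10 and Tgfb1 levels was not tested.

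**Figure D2:**
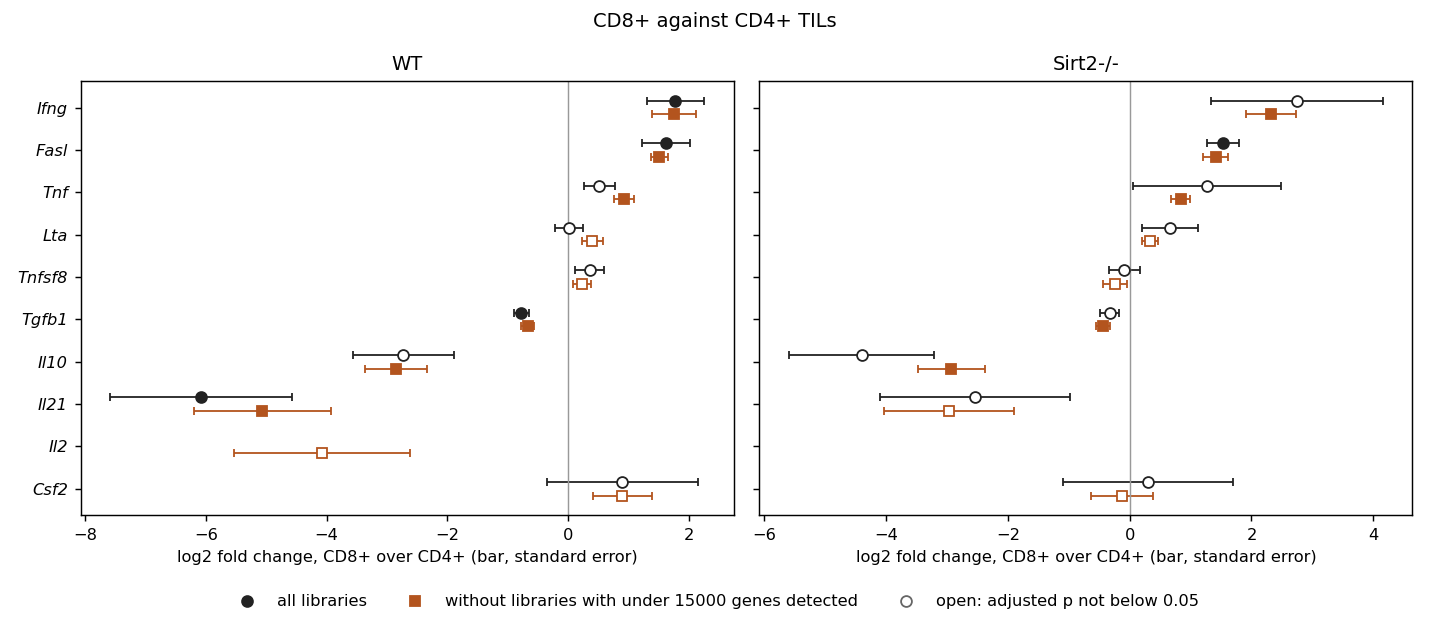
Log2 fold change of each gene in CD8+ over CD4+ TILs (x axis; bars are standard errors) in WT (left) and Sirt2-/- mice (right), with all libraries (black circles) and without those with under 15000 genes detected (brown squares); filled symbols have an adjusted p below 0.05, and Il2 has a value only where it passed the filter. Ifng and Fasl lie right of 0 and Tgfb1, Il10 and Il21 left of it in both panels; more symbols are filled, and most bars are shorter, without those libraries.

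Counted by groups without overlap, 5 of the 10 genes separated the cell types in WT TILs (Ifng and Fasl higher, Tgfb1, Il10 and Il21 lower in CD8+), where 22.7% of all genes did. In Sirt2-/- TILs 5 of 10 did (Ifng, Tnf, Lta and Fasl higher, Il10 lower), where 22.2% of all genes did. The median log2 fold change over all genes was −0.02 in WT and 0.16 in Sirt2-/- TILs; without the libraries with few genes the latter was −0.0042. The comparisons between cell types and between genotypes share libraries, so they are not independent of each other.

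The question of the study was what loss of SIRT2, an NAD+-dependent deacetylase, does to T cells, and the genotypes were compared within each cell type. In CD4+ TILs 0 of the 10 genes passed the test (0% of 15070 genes), 0 had an unadjusted p below 0.05 (1.26% of all genes) and 0 had groups that did not overlap (3.13% of all genes). Sirt2 itself was not called there (log2 fold change −2.60, SE 1.26, adjusted p = 0.9999). With all libraries this comparison could thus miss large differences, and its lack of calls says little. In CD8+ TILs 0 of the 10 genes passed (0.00654% of 15302 genes, which is Sirt2 alone), 8 were tested, and 0 of these had an unadjusted p below 0.05 (3.78% of all genes). DESeq2 and limma-voom called 0 of the 10 genes in both cell types as well.

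In CD8+ TILs the mean level of Ifng was 13.0 ± 6.06 CPM (SD, n = 4) in Sirt2-/- and 9.82 ± 2.25 in WT libraries, with overlapping groups. Its log2 fold change, Sirt2-/- over WT, was 0.41, with −0.23 to 1.06 at 2 SE either side, a range that reaches about 2-fold. Fasl was at 76.7 ± 16.1 against 68.5 ± 11.2 CPM (log2 fold change 0.17, −0.18 to 0.51) and Tnf at 47.9 ± 4.38 against 45.7 ± 12.1 CPM (0.07, −0.29 to 0.42). For these well-counted genes the intervals were narrow, and they were wide for Il10 (0.25, −1.27 to 1.76) and Csf2 (0.36, −0.87 to 1.58). Tgfb1 had the smallest unadjusted p, 0.0960, at 114 ± 8.30 against 100 ± 8.07 CPM (log2 fold change 0.18, SE 0.098, adjusted p = 0.986). Lta and Tnfsf8 had log2 fold changes of −0.16 (SE 0.14) and −0.02 (SE 0.16). Without the WT library with few genes Ifng was at 0.48 (SE 0.35), Fasl at 0.06 (SE 0.15) and Tnf at −0.09 (SE 0.12). Il10 was then at 0.23 (SE 0.70), Csf2 at 0.02 (SE 0.43) and Tgfb1 at 0.21 (SE 0.099). Lta was at −0.24 (SE 0.12) and Tnfsf8 at 0.0072 (SE 0.16). Il2, which was not tested, was the 1 gene of the 10 whose CD8+ groups did not overlap, with 6 to 21 counts in Sirt2-/- and 0 to 4 in WT libraries. The Sirt2-/- libraries also had the higher totals. Of the genes tested, 2.95% had groups without overlap, but Il2 is not among those genes, so that share is no background for it.

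In CD4+ TILs the largest difference was that of Il10, at a log2 fold change of 1.98 (SE 1.13, adjusted p = 0.9999). It fell to 0.50 without Sirt2-/- replicate 4, the library at 44.7 CPM. Leaving out the WT library with few genes as well gave 0.28 (SE 0.38). Il21 was at 2.46 CPM in WT and 0.685 CPM in Sirt2-/- libraries, with a log2 fold change of −1.81 (−4.87 to 1.25) and overlapping groups. Without the libraries with few genes Il21 was at 1.61 and 0.913 CPM, with a log2 fold change of −0.81 (SE 0.76). Tnf and Lta were at −0.62 (SE 1.18) and −0.75 (SE 0.49), and at −0.03 (SE 0.21) and −0.19 (SE 0.18) without those libraries. Tnfsf8 was at 0.49 (SE 0.32) with and 0.44 (SE 0.18) without them, the latter at an unadjusted p of 0.0301 and an adjusted p of 0.990. Ifng, Fasl and Tgfb1 were at −0.49 (SE 1.48), 0.33 (SE 0.60) and −0.20 (SE 0.18), Csf2 at 1.02 (SE 1.83) and Il2 at 0.44 (SE 1.88). Without the libraries with few genes Ifng, Fasl and Tgfb1 were at −0.11 (SE 0.52), 0.13 (SE 0.21) and −0.06 (SE 0.14). Csf2 was then at 1.02 (SE 0.58) and Il2 at 0.44 (SE 1.21).

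**Figure D3:**
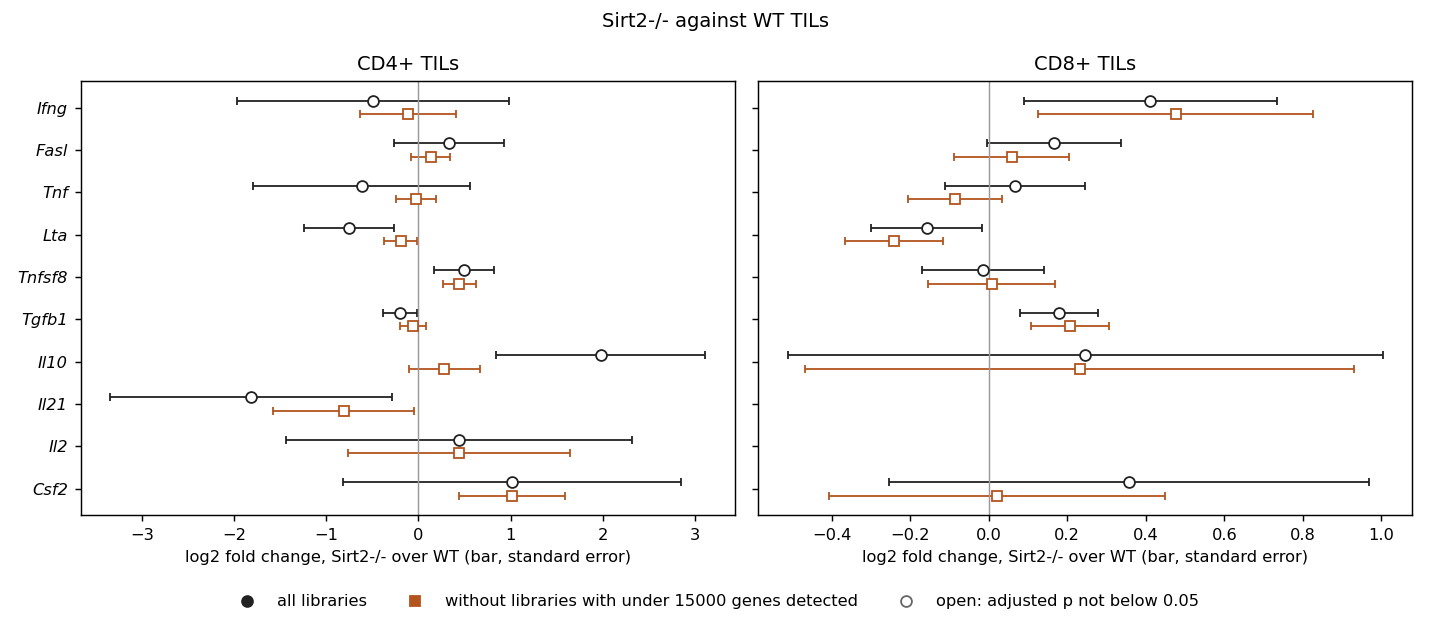
Log2 fold change of each gene in Sirt2-/- over WT TILs (x axis; bars are standard errors) in CD4+ (left) and CD8+ TILs (right), with all libraries (black circles) and without those with under 15000 genes detected (brown squares); the x axes of the panels differ in range. Every symbol is open, since no gene had an adjusted p below 0.05; in CD4+ TILs Il10 moves from 1.98 to 0.28 between the libraries used, and Il2 and Il21 were not tested in CD8+ TILs.

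Whether the genotype difference itself differed between CD8+ and CD4+ TILs was tested over all 16 libraries. None of the 10 genes passed (0% of 17270 genes), and 0 had an unadjusted p below 0.05 (1.98% of all genes). The point estimates ranged from −1.75 for Il10 (SE 1.22) to 3.53 for Il21 (SE 2.04) on the log2 scale. Both rested in part on the libraries with few genes: without these 3 libraries they were −0.05 (SE 0.76) for Il10 and 2.14 (SE 1.53) for Il21, and without Sirt2-/- CD4+ replicate 4 alone that of Il10 was −0.25 (SE 0.94). The best-fixed ones were those of Tgfb1, at 0.39 (SE 0.20), and Tnfsf8, at −0.51 (SE 0.36).

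Levels per kilobase of exon allow a rough comparison of genes with each other. The length is that of all annotated exons of a gene together, 1383 bases for Lta and 5042 for Tgfb1. A gene whose expressed mRNA is shorter than this reads too low, so the order depends on this choice. By this measure Lta had the highest mean of the 10 genes in CD8+ TILs of both genotypes (47.1 CPM per kb in WT and 42.2 in Sirt2-/-) and in WT CD4+ TILs (44.9). In Sirt2-/- CD8+ TILs Lta overlapped Fasl (39.6). In WT CD8+ TILs it was followed by Fasl (35.4), Tnf (27.9), Tgfb1 (19.9) and Tnfsf8 (18.9 CPM per kb), each overlapping the next over its 4 libraries. Ifng (7.58 CPM per kb) lay below all of these and overlapped Csf2 (3.47), and Il10 (0.461), Il2 (0.0238) and Il21 (0.00646) came last. In WT CD4+ TILs the order was Lta and Tgfb1 (32.4), which overlapped, then Tnf (18.6), Tnfsf8 (13.9) and Fasl (10.8), with Tgfb1 above Tnf in every library. Il10 (2.90 CPM per kb), Ifng (2.11) and Csf2 (1.75) overlapped there, as did Il21 (0.469) and Il2 (0.434). In Sirt2-/- CD4+ TILs Tgfb1 (28.1) and Lta (26.3 CPM per kb) led and every neighbour in the order overlapped. The 10 genes together made up 365 ± 30.2 CPM in WT CD8+, 341 ± 23.7 in WT CD4+, 385 ± 31.1 in Sirt2-/- CD8+ and 320 ± 73.9 CPM in Sirt2-/- CD4+ TILs (SD, n = 4).

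**Figure D4:**
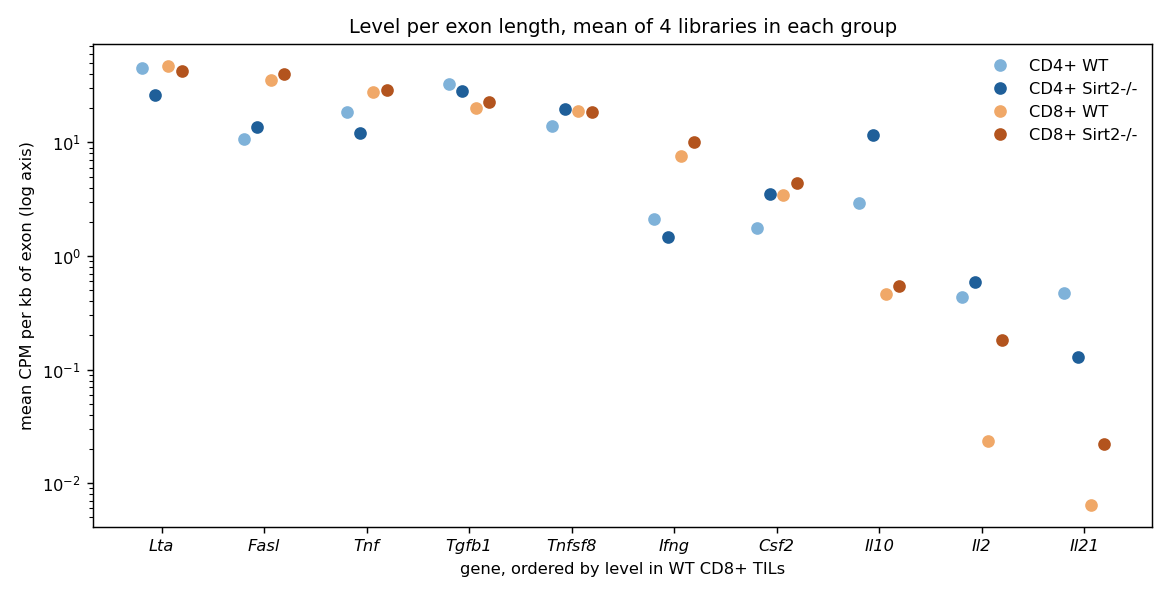
Mean level of each gene per kilobase of exon in the 4 groups (log axis; 4 libraries in each group), in the order of WT CD8+ TILs. Lta, Fasl, Tnf, Tgfb1 and Tnfsf8 lie above 10 CPM per kb in every group, while Il2 and Il21 lie below 1 CPM per kb in every group.

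The receptors of these cytokines leaned the other way from Ifng and Fasl. Of 19 receptor genes, 9 were lower and 0 higher in CD8+ than in CD4+ TILs of WT mice, with a median log2 fold change of −0.84 over the 17 tested. Of all genes 11.9% passed there in either direction, and their median was −0.02. In Sirt2-/- TILs 2 were lower and 0 higher (median −0.32 over 18), where 2.24% of all genes passed and their median was 0.16. Without the libraries with few genes 10 were lower and 1 higher in WT TILs (28% of all genes passed). In Sirt2-/- TILs 8 were then lower and 2 higher (25.4% of all genes). Il2ra, the high-affinity chain of the IL-2 receptor, was at 656 ± 69.8 CPM (SD, n = 4) in WT CD4+ and 91.8 ± 32.1 in WT CD8+ TILs (log2 fold change −2.91, SE 0.25, adjusted p = 4.95e-05), and it fell in Sirt2-/- TILs as well (−2.86, SE 0.35, adjusted p = 0.00666). Ifngr1, the ligand-binding chain for IFN-γ, was at 1163 ± 236 against 416 ± 87.4 CPM in WT TILs (−1.56, SE 0.19, adjusted p = 0.00051) and lower in Sirt2-/- CD8+ TILs too (−1.39, SE 0.25, adjusted p = 0.0313). Tnfrsf1b, a TNF receptor common on Treg cells (−1.01, SE 0.13, adjusted p = 0.000516), and Tnfrsf8, the CD30 receptor of Tnfsf8 (−2.80, SE 0.42, adjusted p = 0.00165), were also lower in WT CD8+ TILs. Il2ra stands in the Treg list too.

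**Figure D5:**
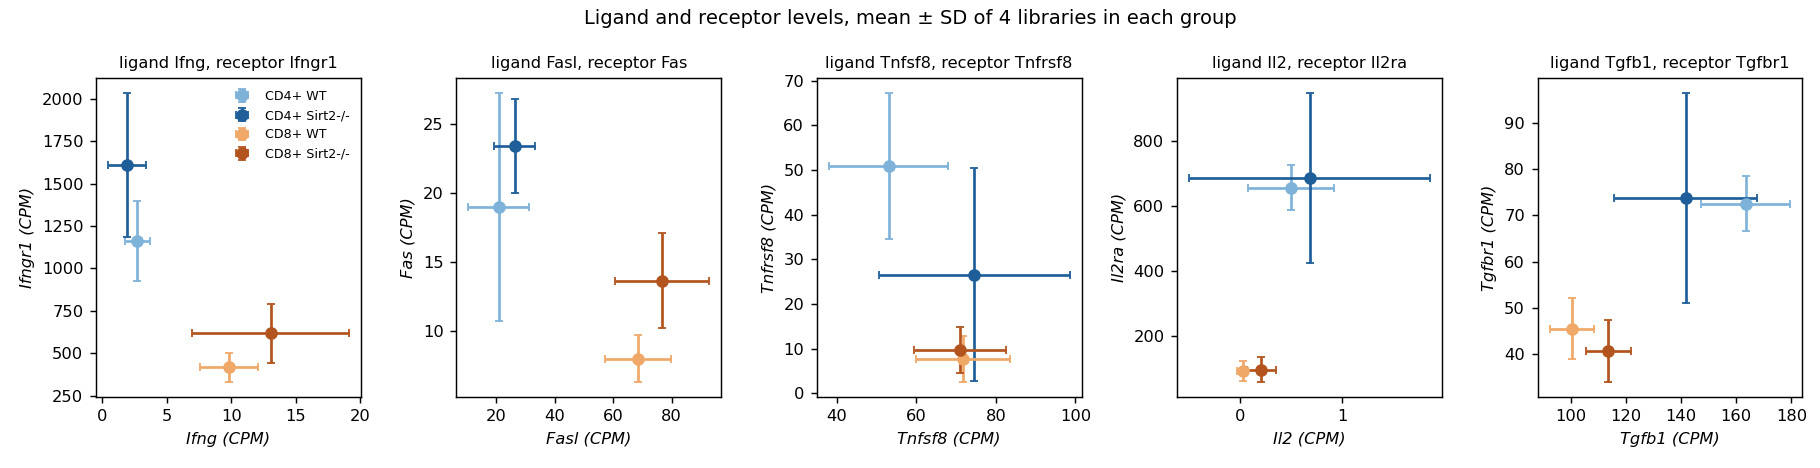
Mean level of a ligand gene (x axis) and of 1 of its receptor genes (y axis), in CPM with SD bars (n = 4), in the 4 groups; the 5 pairs were chosen after the values were seen. CD8+ groups (orange and brown) lie right and low for Ifng with Ifngr1 and for Fasl with Fas, and left and low for Tgfb1 with Tgfbr1.

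Among 24 transcription factors of T cell cytokine programs, 3 were higher and 10 lower in WT CD8+ TILs (23 tested, median −0.63), while in Sirt2-/- mice CD8+ TILs had 2 higher and 4 lower (24 tested, median −0.52). Without the libraries with few genes 3 were higher and 15 lower in WT, and 3 were higher and 13 lower in Sirt2-/- TILs. Of all genes 11.9% passed in WT and 2.24% in Sirt2-/- TILs, and 28% and 25.4% without those libraries. Maf, which can activate Il10 and Il21, was at 341 ± 70.3 CPM in WT CD4+ and 3.75 ± 1.25 CPM in WT CD8+ TILs (log2 fold change −6.57, SE 0.30, adjusted p = 7.37e-07). Eomes and Runx3, factors of the CD8 effector program that act on Ifng, were higher in WT CD8+ TILs, at 3.48 (SE 0.28, adjusted p = 3.90e-05) and 0.92 (SE 0.12, adjusted p = 0.00071), as they were in Sirt2-/- TILs, at 3.58 (SE 0.41, adjusted p = 0.00484) and 0.68 (SE 0.13, adjusted p = 0.0386). Stat5b, which carries the IL-2 signal, was lower in CD8+ TILs, at −1.34 (SE 0.17, adjusted p = 0.000525) in WT and −1.36 (SE 0.13, adjusted p = 0.00229) in Sirt2-/- TILs.

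Of 9 factors that control the decay of cytokine mRNAs, 3 were lower and 0 higher in WT CD8+ TILs (median −0.44), led by Zfp36l1, an AU-rich element binding protein, at −2.03 (SE 0.17, adjusted p = 4.33e-05), with Zc3h12d at −0.85 (SE 0.13, adjusted p = 0.00154) and Zfp36l2 at −0.51 (SE 0.12, adjusted p = 0.022). Only Zfp36l1 passed in Sirt2-/- TILs, at −1.69 (SE 0.21, adjusted p = 0.00666). Leaving out the libraries with few genes, 5 were lower and 1 higher in each genotype. Of 9 genes for the storage and release of TGF-β, 7 were tested in WT TILs, where 3 were lower and 0 higher in CD8+ TILs and 2 had a log2 fold change above 0 (median −0.56). The 3 were Lrrc32, which holds latent TGF-β on Treg cells, at −5.74 (SE 0.22, adjusted p = 2.29e-07), Itgb8, a chain of an integrin that frees it, at −6.42 (SE 0.86, adjusted p = 0.000765), and Furin, the protease that cuts its precursor, at −1.01 (SE 0.15, adjusted p = 0.0015). In Sirt2-/- TILs 2 of 7 were lower and 3 had a log2 fold change above 0: Lrrc32 and Itgb8 passed, at −4.91 (SE 0.64, adjusted p = 0.00802) and −5.71 (SE 0.72, adjusted p = 0.00691), and Lrrc32 is also a gene of the Treg list. Without the libraries with few genes 4 were lower and 1 higher in WT, and 3 lower and 1 higher in Sirt2-/- TILs. Beside both the decay and the release genes, 11.9% of all genes passed in WT and 2.24% in Sirt2-/- TILs. The shares were 28% and 25.4% without those libraries.

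Of 19 other cytokines, 6 were tested in WT TILs, where 11.9% of all genes passed, and 2 were lower and 0 higher in CD8+: Il16 at −0.72 (SE 0.10, adjusted p = 0.00136) and Ebi3, a subunit of IL-27 and IL-35, at −6.52 (SE 1.10, adjusted p = 0.00295). Of 13 other ligands of the TNF superfamily, 8 were tested and Cd40lg, the helper ligand for CD40, was lower at −6.89 (SE 0.70, adjusted p = 0.000136); it is also one of the CD4 markers. Ebi3, Cd40lg and Itgb8 had 0 to 11, 0 to 30 and 0 to 56 counts in the WT CD8+ libraries and passed the filter on low counts only through the CD4+ libraries, so their folds are poorly fixed. Of either list 0 genes passed in Sirt2-/- TILs with all libraries; without those with few genes 3 other cytokines were lower and 1 higher and 2 other ligands lower and 1 higher there, Ebi3 (−6.44, SE 0.61, adjusted p = 5.95e-05) and Cd40lg (−6.63, SE 0.36, adjusted p = 6.44e-06) among the lower ones. Between genotypes, 0 genes passed in CD4+ or CD8+ TILs in any of these lists: receptors, transcription factors, decay factors, release of TGF-β, other cytokines and other ligands. The exception without the WT CD8+ library with few genes was Maf, at 10.2 to 15.1 CPM in Sirt2-/- and 1.97 to 4.84 CPM in WT CD8+ TILs, with a log2 fold change of 1.53 (SE 0.20, adjusted p = 0.0179) there and 1.74 (SE 0.29, adjusted p = 0.264) with all libraries. The CD4 marker list, whose cells hold far more Maf, summed to 6.02 to 12.3 CPM in Sirt2-/- and 0.787 to 10.3 CPM in WT CD8+ libraries; the part of such cells in this difference was not tested.

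Genes that respond to IFN-γ were read beside Ifng itself. In CD8+ TILs all 14 such genes had a log2 fold change above 0, Sirt2-/- over WT (median 0.74, against 0.01 for all genes); 11 had an unadjusted p below 0.05, where 3.78% of all genes did, and 0 passed after adjustment. Without the WT library with few genes 8 had an unadjusted p below 0.05 (4.18% of all genes), and the median was 0.56. The 2 with the smallest p, chosen after the values were seen, were Cxcl9, a chemokine made mostly by myeloid cells, at 0.0407 to 22.6 CPM in Sirt2-/- and 0 to 0.381 CPM in WT libraries, and Irf1 at 262 ± 82.1 against 170 ± 19.5 CPM. Cxcl9 had 0 to 14 counts in WT and 2 to 1123 in Sirt2-/- CD8+ libraries. These groups overlapped, so the size of its difference is poorly fixed. In CD4+ TILs 12 of the 13 tested lay above 0 (median 0.42, against −0.11), 2 with an unadjusted p below 0.05 and 0 after adjustment; without the libraries with few genes 6 of 14 had an unadjusted p below 0.05 (4.35% of all genes). Between cell types 1 of 13 passed in WT TILs (11.9% of all genes did), Gbp3, lower in CD8+ at −1.55 (SE 0.24, adjusted p = 0.00189), although Ifng was higher there. In Sirt2-/- TILs 0 of 14 passed (2.24% of all genes). Without the libraries with few genes 7 of 13 were lower and 0 higher in WT CD8+ TILs (28% of all genes passed). In Sirt2-/- TILs 2 of 14 were then lower and 1 higher in CD8+ (25.4% of all genes). The 12 myeloid genes of the marker list summed to 9.69 to 42.6 CPM in Sirt2-/- CD8+ and 2.24 to 9.26 CPM in WT CD8+ libraries, and to 6.85 to 37.2 against 1.497 to 16.1 CPM in CD4+ libraries. Of these, 11 to 12 were detected in each Sirt2-/- CD8+ and 2 to 12 in each WT CD8+ library. The part of myeloid cells in the levels of the response genes was not tested.

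Marker genes of other cells were also read in these libraries. B cell genes summed to 0.0179 to 17.0 CPM, dendritic cell genes to 1.87 to 13.96 CPM and neutrophil genes to 0 to 0.806 CPM over the groups, and the T cell genes of the list to 1029 to 2639 CPM. Of the 5 dendritic cell genes Zbtb46 made up most of the mean sums. It stood at 12.0 of 12.2 CPM in WT CD4+, 7.99 of 8.36 in Sirt2-/- CD4+, 5.02 of 5.12 in WT CD8+ and 3.53 of 3.70 in Sirt2-/- CD8+ libraries. Clec9a had 0 counts in all of them. Melanoma genes stood apart in 2 libraries with few genes, at 98.5 CPM in WT CD4+ replicate 1 and 81.5 CPM in Sirt2-/- CD4+ replicate 4, the library that also held 44.7 CPM of Il10. All 7 genes of the list were detected in WT CD4+ replicate 1. In Sirt2-/- CD4+ replicate 4 only 2 of the 7 were, Dct (27.5 CPM) and Mitf (54.0 CPM). In the other CD4+ libraries they summed to 5.50 to 13.2 CPM, in Sirt2-/- CD8+ to 7.21 to 15.7 and in WT CD8+ libraries to 3.83 to 11.4 CPM. Stromal genes, among them Pecam1, summed to 40.6 to 107 CPM in Sirt2-/- CD8+ against 36.2 to 48.3 in WT CD8+ libraries, and to 64.5 to 181 in Sirt2-/- CD4+ against 95.1 to 116 CPM in WT CD4+ libraries. On average Pecam1 made up most of these sums. Its means were 39.6 CPM in WT CD8+, 58.3 in Sirt2-/- CD8+, 103 in WT CD4+ and 113 in Sirt2-/- CD4+ libraries. In WT CD8+ libraries 1 to 4 of the 5 stromal genes were detected. The sum, on average mostly Pecam1, exceeded the levels of Ifng, Il2, Il21, Il10 and Csf2 in every library. The part of stromal cells in the levels of the 10 genes was not tested.

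Likeness across the 16 libraries was measured as the root mean square difference of log2 CPM after each gene was centred, among 17269 other genes. The genes nearest to Ifng were Bub1 (0.43) and Orc1 (0.45), and those nearest to Fasl were Cxcr6 (0.36) and Uxs1 (0.37). For Tnf they were Dbi (0.17) and Utp4 (0.21), for Lta Wdr12 (0.22) and Ptbp1 (0.22), for Tnfsf8 Zkscan1 (0.23) and Tgoln1 (0.25), and for Tgfb1 Zswim8 (0.14) and Tbc1d9b (0.17). The nearest were farther away for Il21 (Adcy9 at 0.77 and Fam43a at 0.91), Il10 (Phldb1 at 0.81 and Tbc1d30 at 0.83) and Il2 (Gm16350 at 0.71 and Gm37249 at 0.78). For Csf2 they were Gm43360 (0.43) and Tlr2 (0.58). The genes' own spread on this scale ran from 0.31 for Tgfb1 to 2.26 for Tnf, so distances of different genes are not directly comparable. The nearest of the other 9 genes was never close: for Ifng it was Tnf, at 0.96, behind 568 other genes. Without the 3 libraries with few genes Bub1 kept rank 1 for Ifng, while Utp4 went from rank 2 to 181 for Tnf and Cxcr6 from 1 to 21 for Fasl. The libraries share cell type and depth, so these values describe shapes and carry no test.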

How the data were processed

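Stranded total RNA libraries of TILs (SMARTer pico kit) were sequenced by the authors. The deposited values are raw counts of reads on each gene, in 1 table and not normalized; the submitters' processing notes name STAR, HTSeq and mm10 with no version. All 55450 gene identifiers match GENCODE M21 (GRCm38). How CD4+ and CD8+ cells were separated, and whether same-numbered libraries share an animal, are not given in the sources used here. Total counts per library of 28000949 to 62407851 set the precision.

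Groups came from genotype and cell type in the labels. The counts were fitted with edgeR 4.0.16 in R 4.3.3 (TMM, filterByExpr over the compared groups, robust quasi-likelihood test, two-sided), fitted over all genes for each pair of groups and, for the interaction, over all 16 libraries, with Benjamini–Hochberg adjustment over all genes and a threshold of 0.05. SE is the log2 fold change divided by the square root of F, and intervals are 2 SE either side. Log2 CPM used a prior count of 2. Alternatives were DESeq2 1.42.0, voom of limma 3.58.1 with sample weights, the size factors of DESeq2, no filter, a single model of all 16 libraries, a block for the replicate number, leaving out libraries with under 15000 genes detected and leaving out each library. The functions were tested on simulated data.

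The 10 genes, the gene lists (receptors, other cytokines, other TNF superfamily ligands, transcription factors, mRNA decay factors, TGF-β release, IFN-γ response, and markers of T, CD4+, CD8+, Treg, myeloid, dendritic, neutrophil, B, NK, melanoma and stromal cells) and the rules were chosen with earlier results of these data known. Named were all 10 genes, Sirt2, up to 4 called genes of each list in each comparison by smallest p, and the 2 genes most like each of the 10. The list counts without the libraries with few genes were added after seeing the data.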

Additional observations from a re-analysis of the deposited data

Results flagged for a closer look

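Among 44 groups of 4 libraries examined (the 10 genes and the number of genes detected, in each group), 8 held 1 library that stood apart from the other 3 by Dixon's criterion, where chance gives about 2.2. Sirt2-/- CD4+ replicate 4 had counts on 8169 genes against 19159 to 20310 in the rest of its group, and WT CD8+ replicate 1 on 14411 against 20105 to 20980.

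Il10 stood at 44.7 CPM in Sirt2-/- CD4+ replicate 4 against 3.88 to 7.75 CPM in the other 3, in the same library that had 0 counts of Ifng, Il2, Il21, Csf2 and Sirt2 and 1 of Tnf. Il2 stood at 2.44 CPM in Sirt2-/- CD4+ replicate 3 against 0 to 0.189, at 0.427 CPM in Sirt2-/- CD8+ replicate 1 against 0.121 to 0.148, and at 0.109 CPM in WT CD8+ replicate 3, which was 4 counts, against 0. Tnfsf8 stood low at 30.7 CPM in WT CD4+ replicate 1 against 57.7 to 63.0 CPM, in a library with few genes, and at 53.8 CPM in Sirt2-/- CD8+ replicate 3 against 75.9 to 78.6 CPM. The causes were not tested.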

How the results depend on the processing

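Between genotypes and in the interaction, 0 of the 10 genes were called under every alternative run; over all genes the calls were 0 in CD4+ TILs (DESeq2 7, voom 4, without the libraries with few genes 6), 1 in CD8+ TILs (28, 4 and 7; no filter 5) and 0 in the interaction (DESeq2 2). Between cell types in WT TILs 4 of the 10 genes were called: 5 with DESeq2, 7 with voom, 3 without the filter, 2 with all 16 libraries in 1 model, 4 with the size factors of DESeq2 and 6 without the libraries with few genes. In Sirt2-/- TILs the 1 call became 2, 6, 0, 2, 1 and 5. All genes called in WT TILs were 1765 (2651, 5481, 1850, 811, 1792 and 4394), against 354 in Sirt2-/- TILs (1339, 4474, 267, 781, 361 and 4250). Leaving out 1 library moved the 10 genes' calls between 1 and 6 (WT) and between 0 and 5 (Sirt2-/- TILs), and all calls between 1022 and 2767, between 111 and 4250, and in the CD8+ genotype comparison between 0 and 7. Between cell types the fewest calls over all genes came without CD8+ replicate 4 (WT) and 3 (Sirt2-/-), and the most without the CD4+ library with few genes. With 1 library left out the others are assumed to vary alike. Calls of Fasl and Tgfb1 in WT TILs held under all 7 other tools and settings run, with adjusted p of at most 0.0231 and 0.00866; those of Ifng and Il21 ranged up to 0.429 and 0.0548.

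Directions that turned, all of differences not called, were with voom Ifng 0.077 and Il2 −0.52 (Sirt2-/- over WT, CD4+), Tnf −0.11 and Tnfsf8 0.10 (CD8+), Csf2 −0.31 (CD8+ over CD4+, Sirt2-/-), and Tnf −0.0499, Il10 0.107 and Lta −0.19 (interaction). Without the libraries with few genes they were Tnf −0.0858 and Tnfsf8 0.0072 (CD8+), Csf2 −0.12, and Tnf −0.061 and Lta −0.0467 (interaction). Leaving out 1 library gave ranges across 0 for Csf2 (−0.12 to 0.84) and Tnfsf8 (−0.24 to 0.12) between Sirt2-/- cell types, Lta between WT cell types (−0.14 to 0.32), Il2 between CD4+ genotypes (−2.39 to 1.02), Il10 (−0.0334 to 0.57), Tnf (−0.0858 to 0.21) and Tnfsf8 (−0.11 to 0.11) between CD8+ genotypes, and Fasl in the interaction (−0.37 to 0.15). The causes were not tested.

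Replicate numbers were not used as pairs: residuals of same-numbered CD4+ and CD8+ libraries correlated at 0.12, 0.11, 0.12 and 0.07 for WT mice and, for Sirt2-/- mice, at 0.13, 0.03, −0.01 and −0.01, and those of same-numbered genotypes between −0.07 and 0.08. With the replicate number as a block, 2 of the 10 genes were called between WT cell types, with Ifng (adjusted p = 0.0797) and Il21 (0.050005) no longer called, and 0 between Sirt2-/- cell types (Fasl 0.0668), all calls were 1619, 108, 0 (CD4+ genotypes), 4 (CD8+ genotypes) and 0 (interaction), and Il2 turned to −0.0917 between CD4+ genotypes.

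Sparse counts limit what can be said of Il2, Il21 and Csf2.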
